A study of Mus musculus with 72 samples.

Results

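The long non-coding RNAs (lncRNAs) described here are the small nucleolar RNA (snoRNA) host transcripts *Gas5*, *Snhg1*, *Snhg3*, *Snhg12* and *Snhg15* and the nuclear lncRNAs *Neat1* and *Malat1*. They were chosen by name, with earlier results of these data known, and the study had already reported *Snhg15* as higher in irradiated liver. The gene lists counted below were likewise chosen with earlier results known. Every non-control probe whose transcript identifier maps to one of these symbols through RefSeq was taken, which gave 9 probes for 6 of the 7 genes, out of 34566 probes named in this way and 56605 non-control probes in all. *Snhg15*, *Gas5* and *Neat1* have 2 probes each and *Snhg1*, *Snhg3* and *Snhg12* have 1 each. No probe was matched to *Malat1* through the table used, so *Malat1* was not analysed here. All 9 probes were well above the local background on each of the 18 liver and 18 lung arrays, so no probe of the set was lost to a filter on dim signals.

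The animals were female C57BL/6 J mice, 6 to 8 weeks of age, sham-exposed (0 Gy) or given total-body X-rays once, at 1 or 2 Gy, at 4 Gy, or at 8 or 12 Gy, with 3 mice in each of the 6 dose groups. RNA was taken 48 h later. Liver and lung were profiled on 36 Agilent 1-colour mRNA arrays, 1 per animal and tissue, and a further 36 miRNA arrays of the same series were not used. Tissue follows the sample labels, while the series' design text speaks of hearts. RNA carrying a poly(A) tail was amplified before labelling, so the arrays report processed, polyadenylated transcripts and not the snoRNAs themselves.

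The host genes carry snoRNAs inside their introns. When the primary transcript is spliced, the introns are trimmed to mature snoRNAs, which guide the chemical modification or cleavage of ribosomal RNA, and the joined exons leave the nucleus as a transcript with little coding potential that is usually short-lived. Several host genes, *Gas5* and *Snhg1* among them, start transcription within a pyrimidine tract, as ribosomal protein genes do, and their spliced RNA is degraded during translation by nonsense-mediated decay, so that it accumulates when translation or decay slows. *Neat1* works differently, since its RNA stays in the nucleus. Its long form is the scaffold on which paraspeckles, bodies that hold RNA-binding proteins, are built. Which form of *Neat1* the probes read was not examined here.

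In RefSeq's annotation of GRCm38.p6, 8 snoRNA genes lie within *Gas5*, 8 within *Snhg1*, 4 within *Snhg12*, 2 within *Snhg3* and 1 within *Snhg15*, and none lies within *Neat1*. The sequences around the starts of the 5 host genes are shown because a pyrimidine tract at the start is a known trait of such genes. Each line gives 50 bases before and 50 bases from the annotated start onward, 5′ to 3′ on the gene's strand, from RefSeq's GRCm38.p6, with capitals on the longest run of C and T that comes within 20 bases of the start. *Gas5* has a pair of annotated starts, and the window of the second is shown (chr1:161035116-161035215, plus strand). The others lie at chr19:8723437-8723536 on the plus strand for *Snhg1*, chr4:132353637-132353736 on the minus strand for *Snhg3*, chr4:132308628-132308727 on the plus strand for *Snhg12* and chr11:6528711-6528810 on the minus strand for *Snhg15*.

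Gas5: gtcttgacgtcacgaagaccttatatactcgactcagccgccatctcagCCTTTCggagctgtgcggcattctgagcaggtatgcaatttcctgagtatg
Snhg1: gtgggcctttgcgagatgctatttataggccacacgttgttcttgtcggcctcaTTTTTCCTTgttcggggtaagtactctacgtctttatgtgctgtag
Snhg3: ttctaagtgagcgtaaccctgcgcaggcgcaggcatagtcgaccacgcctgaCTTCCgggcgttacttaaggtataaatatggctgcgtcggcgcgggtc
Snhg12: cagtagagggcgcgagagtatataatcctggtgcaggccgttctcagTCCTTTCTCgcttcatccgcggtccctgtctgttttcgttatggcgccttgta
Snhg15: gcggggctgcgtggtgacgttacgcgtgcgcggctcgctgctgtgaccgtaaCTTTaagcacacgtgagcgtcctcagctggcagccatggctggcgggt

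The run of pyrimidines was 9 bases long in *Snhg1* and in *Snhg12*, 6 in *Gas5*, 5 in *Snhg3* and 4 in *Snhg15*. At the other annotated *Gas5* start the longest run was 3. A run of at least 8 was present near the start in 21% of 32841 RefSeq promoters, so the windows of *Snhg1* and *Snhg12* share a feature that is not rare. Over the whole window of 300 bases (250 before the start and 50 after), searched on both strands, *Snhg15* held CACGTG, found in 7.15% of all promoters, and TGACGTCA, found in 1.79%. The window of the shown *Gas5* start also held TGACGTCA, and that of the other *Gas5* start did not. TATAAA occurred in *Snhg1* and *Snhg3* and in 13.6% of all promoters. The p53 half-site consensus, which occurred in 8.36% of all promoters, was matched in none of these windows.

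The arrays bore out their tissue labels. For 10 hepatocyte genes the log2 of the summed intensity was 20.98 to 21.10 on liver arrays and 9.54 to 16.35 on lung arrays. That of 8 alveolar and airway genes lay between 20.31 and 20.54 in lung and between 12.39 and 13.43 in liver. Such a sum, also given for the B cell and erythroid genes below, follows mostly the brightest genes of a list. Between 46.1% and 54.0% of spots were well above background in liver and between 59.2% and 64.0% on 14 lung arrays. The other 4 lung arrays, 1 of 8 Gy (mouse 25) and all 3 of 12 Gy, were on slide 5, were scanned on another day and stood apart at 54.1% to 54.8%. The arrays of each tissue were spread over 3 slides that follow dose in part. Lymphocyte, erythroid and proliferation markers were lower after irradiation in both tissues, though not every gene of each list was and not all fell steadily with dose. In liver 5 of 9 B cell and 5 of 10 T cell genes had a negative dose trend at an adjusted p under 0.05, where 5.47% of all probes did, and in lung 8 of 10 and 9 of 10 did, where 11% of all probes did. In lung the summed B cell signal went from 13.69 to 14.92 at 0 Gy to between 11.51 and 11.95 at 12 Gy. The summed erythroid signal went from 16.89 to 17.02 at 0 Gy to between 15.30 and 15.52 at 12 Gy in liver, and from 18.37 to 18.65 to between 14.78 and 14.95 in lung. In liver this sum was already between 15.08 and 15.59 at 1 Gy. Of 8 erythroid genes tested in liver, 3 had a lower trend and 1 a higher one, where 5.47% and 4.04% of all probes did. In lung 4 of 6 had a lower trend and 1 a higher one, where 11% and 19.7% did. Of 12 proliferation genes, 9 were lower at 12 Gy in liver and 10 in lung, where 4.1% and 7.81% of all probes were. On the dose trend 4 of the 12 were lower in liver and 5 in lung, where 5.47% and 11% of all probes were. The part of these markers in the results below was not tested, and in bulk tissue fewer cells of a type and less RNA per cell cannot be told apart. Of 8 tested p53 targets, 7 had a higher trend in liver and 7 in lung, where 4.04% and 19.7% of all probes did.

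Values below are log2 intensities after background correction and quantile normalization of the 18 arrays of a tissue. A change is a difference of log2 values with its standard error (SE), tested with limma, and the adjusted p is the Benjamini-Hochberg value over all 38362 probes tested in liver or 43979 in lung. Where a gene has 2 probes, the brighter is meant unless the other is named. A dose trend is a straight line through the 6 doses, given as the log2 change over 12 Gy.

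In liver all 5 host genes had a probe that rose with dose, and *Neat1* fell on 1 of its 2 probes. With slide as a random block the calls of *Snhg1*, *Snhg3* and both *Snhg15* probes held and those of *Gas5*, *Snhg12* and *Neat1* were lost, and none passed with slide as a term. The random block used a correlation within slides of 0.0583 and still compared doses across slides. A call that held there thus does not separate dose from slide. Of the 7 host probes, 6 had a higher dose trend at an adjusted p under 0.05, where 4.04% of all liver probes did, and the remaining probe, the brighter of *Gas5*, had a trend of 0.33 with an adjusted p of 0.0519. The trends of the host probes ran from 0.33 to 1.96 with a median of 0.94, against a median of 0.0038 over all probes. Of all 9 probes, 7 passed, where 9.51% of all probes did, and 4 of these, both of *Snhg15*, that of *Snhg1* and the dimmer of *Neat1*, also had a trend above 1 in size, where 2.02% did. *Snhg15* led, followed by *Snhg1*, *Snhg3*, *Snhg12* and *Gas5*. At 4 Gy all 7 host probes had every irradiated mouse above every control, at 8 Gy 6 did and at 12 Gy all 7 did, where 17.1%, 16% and 14.8% of all probes did. At 1 Gy none did, where 7.38% of all probes did, and 2 of the 7, *Snhg3* and the dimmer *Gas5* probe, had every mouse below the controls, where 6.27% did. At 2 Gy 3 of the 7 had every mouse above the controls, where 9.36% of all probes did. All 0 and 1 Gy livers were on slide 1, and all 4, 8 and 12 Gy livers were on slides 2 and 3. From 4 Gy upward a separation from the controls is thus also one of slides, and dose and slide cannot be told apart in it.

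**Figure D1:**
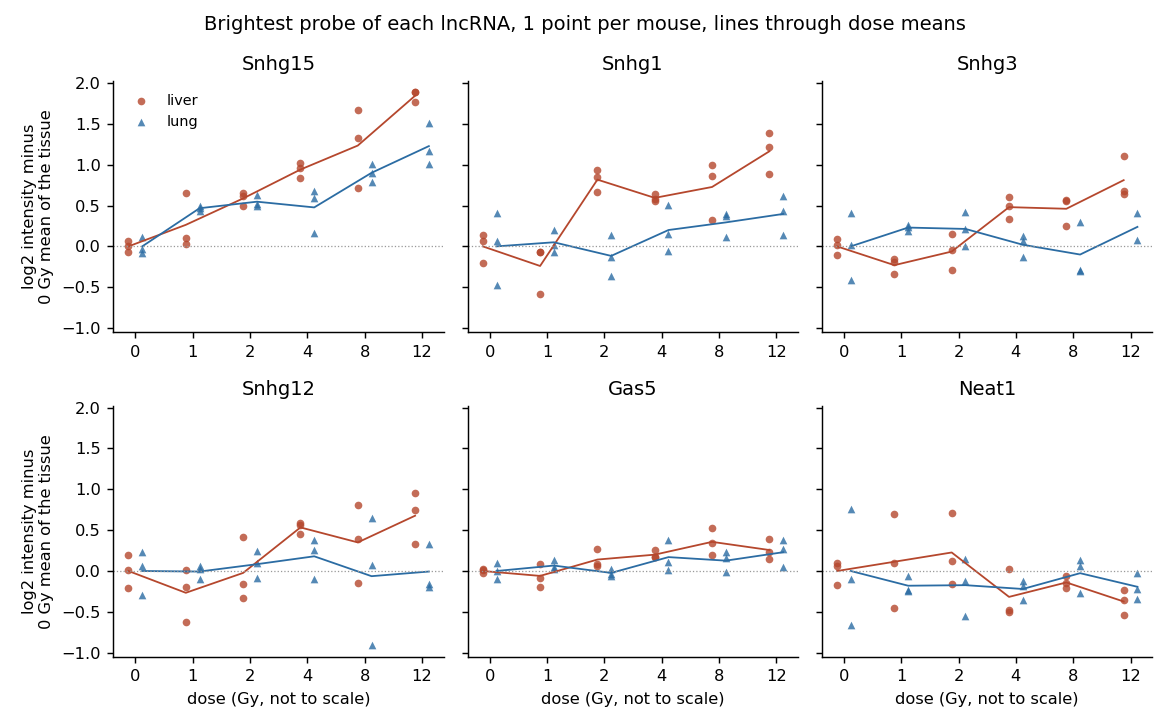
Log2 intensity of the brightest probe of each lncRNA minus the mean of the 0 Gy mice of the same tissue (vertical axis), by dose in Gy (horizontal axis, evenly spaced), for liver (circles) and lung (triangles). Each point is 1 mouse and lines join the dose means. Snhg15 rose in both tissues, Snhg1, Snhg3 and Snhg12 had called trends in liver, and Neat1 spread widely at low doses.

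*Snhg15* hosts a single annotated snoRNA gene, and its spliced RNA is short-lived and is known to respond to cell stress. In liver its log2 intensity was 8.28, 8.41 and 8.35 in the 0 Gy mice. It was 8.38, 9.0 and 8.45 at 1 Gy and 8.96, 9.0 and 8.84 at 2 Gy. The 1 Gy mice overlapped the controls through mouse 2, whereas all 2 Gy mice were above them. Values went on to 9.31, 9.18 and 9.37 at 4 Gy, to 9.06, 10.01 and 9.67 at 8 Gy and to 10.11, 10.23 and 10.23 at 12 Gy. From 2 Gy upward no irradiated mouse overlapped a control, and the 8 Gy group was the widest, with mouse 5 lowest. The change against 0 Gy was 0.94 at 4 Gy (SE 0.20, adjusted p = 0.019), 1.23 at 8 Gy (SE 0.20, adjusted p = 0.00206) and 1.84 at 12 Gy (SE 0.20, adjusted p = 7.77e-05), which are 1.92-fold, 2.35-fold and 3.58-fold. The 4 Gy call was lost when any of 6 liver arrays was left out (adjusted p up to 0.0789), and those at 8 and 12 Gy were not. At 1 and 2 Gy the change was 0.26 and 0.59, with adjusted p of 0.868 and 0.244. The trend was 1.70 (SE 0.17, adjusted p = 5.49e-06).

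The dimmer *Snhg15* probe rose at the same doses in liver. It read 7.33, 7.85 and 7.66 at 0 Gy, 8.00, 8.34 and 7.37 at 1 Gy and 7.80, 8.28 and 8.52 at 2 Gy, so that both low-dose groups overlapped the controls. It read 9.05, 8.66 and 9.40 at 4 Gy, 9.12, 9.09 and 9.20 at 8 Gy and 9.68, 9.61 and 9.74 at 12 Gy, all above the controls. The change was 1.42, 1.52 and 2.06 at these doses, with adjusted p of 0.00665, 0.00206 and 0.000182, and the trend was 1.96 (SE 0.24, adjusted p = 5.16e-05). On slide 1 alone the brighter probe was 0.63 higher in the 2 Gy mice of that slide than at 0 Gy, and on slide 2 it was 0.44, 0.74 and 1.27 higher at 4, 8 and 12 Gy than in the single 2 Gy mouse there. With slide as a term of the model the trend was 1.44 (SE 0.34, adjusted p = 0.0821), and with slide as a random block 1.68 (adjusted p = 2.62e-05).

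*Snhg1*, the host of *Snord22* and 7 further snoRNA genes, rose in liver but not evenly. It read 9.78, 9.51 and 9.85 at 0 Gy, 9.13, 9.65 and 9.64 at 1 Gy and 10.38, 10.65 and 10.56 at 2 Gy. The 2 Gy mice were thus all above the controls, though the change of 0.82 (SE 0.19) had an adjusted p of 0.0816. It read 10.27, 10.29 and 10.36 at 4 Gy, 10.04, 10.71 and 10.57 at 8 Gy and 10.93, 11.10 and 10.60 at 12 Gy. All 4 Gy mice were below all 2 Gy mice, and the 8 Gy mice overlapped both groups. The change was 0.73 at 8 Gy (SE 0.19, adjusted p = 0.0265) and 1.17 at 12 Gy (SE 0.19, adjusted p = 0.00178, 2.25-fold), and the trend was 1.09 (SE 0.24, adjusted p = 0.00588). The 8 Gy call was lost with the processed signal scaled to the 75th percentile (0.67, adjusted p = 0.0511), with the deposited series values (0.64, adjusted p = 0.0625) and with slide as a random block (0.72, adjusted p = 0.0563). It was also lost when any of 4 liver arrays was left out (adjusted p up to 0.109). On slide 1 alone *Snhg1* was 0.8 higher in the 2 Gy mice of that slide than at 0 Gy. On slide 2 it differed by -0.25, -0.12 and 0.38 at 4, 8 and 12 Gy from the single 2 Gy mouse there.

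*Snhg3*, the host of the H/ACA snoRNAs *Snora73a* and *Snora73b*, passed in liver at 12 Gy and on the trend. In liver it read 10.53, 10.46 and 10.33 at 0 Gy, 10.25, 10.28 and 10.10 at 1 Gy and 10.15, 10.39 and 10.59 at 2 Gy. The 1 Gy mice were all slightly below the controls, with a change of -0.23 (adjusted p = 0.834). It read 10.94, 10.78 and 11.04 at 4 Gy, 10.69, 11.01 and 11.00 at 8 Gy and 11.55, 11.12 and 11.08 at 12 Gy, all above the controls. The change passed at 12 Gy (0.81, SE 0.15, adjusted p = 0.00445), while at 4 and 8 Gy it was 0.48 and 0.46 with adjusted p of 0.0975 and 0.0665. The trend was 0.94 (SE 0.15, adjusted p = 6e-04). On slide 1 alone *Snhg3* differed by -0.17 between the 2 Gy mice of that slide and 0 Gy. On slide 2 it was 0.33, 0.31 and 0.96 higher at 4, 8 and 12 Gy than in the single 2 Gy mouse.

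*Snhg12* hosts *Snora16a*, *Snora44*, *Snora61* and *Snord99*. In liver it read 9.15, 8.74 and 8.96 at 0 Gy, 9.40, 9.51 and 9.54 at 4 Gy, 8.80, 9.34 and 9.76 at 8 Gy and 9.90, 9.70 and 9.28 at 12 Gy. The 4 and 12 Gy mice were above the controls and the 8 Gy mice overlapped them through mouse 5. No single dose passed, with the lowest adjusted p of 0.133 at 12 Gy for a change of 0.68 (SE 0.25). The trend passed at 0.79 (SE 0.22, adjusted p = 0.0302). It was 0.70 with slide as a random block (adjusted p = 0.0884) and 0.19 with slide as a term (SE 0.39, adjusted p = 0.881). The call was also lost without 0 Gy mouse 11 (adjusted p = 0.0578), 12 Gy mouse 6 (0.109) or 12 Gy mouse 16 (0.0596). On slide 1 alone *Snhg12* differed by -0.24 between the 2 Gy mice of that slide and 0 Gy. On slide 2 it differed by 0.11, -0.07 and 0.53 at 4, 8 and 12 Gy from the single 2 Gy mouse.

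*Gas5*, named for its accumulation in growth-arrested cells, changed least among the hosts and was the tightest. In liver it read 14.33, 14.29 and 14.34 at 0 Gy, 14.49, 14.58 and 14.49 at 4 Gy, 14.66, 14.85 and 14.52 at 8 Gy and 14.71, 14.47 and 14.55 at 12 Gy. All mice at these doses were above the controls, and so were those at 2 Gy, yet the largest change, 0.36 at 8 Gy (SE 0.11), had an adjusted p of 0.0599. The dimmer probe read 12.61, 12.58 and 12.67 at 0 Gy and 13.15, 12.89 and 12.83 at 12 Gy. Its trend was 0.46 (SE 0.12, adjusted p = 0.025), a 1.37-fold change over the dose range, against 0.33 (SE 0.10) for the brighter probe. The trend of the dimmer probe was 0.41 with slide as a random block (adjusted p = 0.0674) and 0.28 with slide as a term (adjusted p = 0.604).

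*Neat1* was the member with a fall in liver, and the fall passed on 1 of its 2 probes named through RefSeq. The study's supplement lists a lncRNA region probe with a rising linear dose trend in liver whose coordinates lie within the *Neat1* span used here. It carries no RefSeq name and was not analysed here, and the genome build of its coordinates was not stated. The brighter probe read 6.69, 6.92 and 6.96 at 0 Gy, 6.41, 6.95 and 7.55 at 1 Gy and 7.57, 6.98 and 6.70 at 2 Gy. It read 6.38, 6.88 and 6.36 at 4 Gy, 6.65, 6.71 and 6.79 at 8 Gy and 6.50, 6.63 and 6.32 at 12 Gy. Only the 12 Gy mice were all below the controls, and the 1 and 2 Gy mice spread the widest. The trend was -0.45 (SE 0.21, adjusted p = 0.2). The dimmer probe read 6.71, 6.81 and 6.84 at 0 Gy, 5.51, 6.30 and 5.73 at 4 Gy, 5.83, 5.72 and 6.38 at 8 Gy and 5.61, 6.28 and 5.69 at 12 Gy, all irradiated mice of these doses being below the controls. Its trend was -1.01 (SE 0.31, adjusted p = 0.0461, 0.495-fold). The changes of the dimmer probe at 4, 8 and 12 Gy were -0.94, -0.81 and -0.93, with adjusted p of 0.177, 0.176 and 0.15. Of both *Neat1* probes, 1 had every mouse below the controls at 4 Gy, 1 at 8 Gy and 2 at 12 Gy, where 15.3%, 15.9% and 15% of all probes did. The trend of the dimmer probe with slide as a term was -0.15 (adjusted p = 0.936), and -0.89 with slide as a random block (adjusted p = 0.128). That of the brighter probe was 0.15 with slide as a term, with the direction turned. The fall was not called with the processed signal scaled to the 75th percentile or with the deposited series values.

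Counted by dose in liver, 4 of the 9 probes passed at 1 dose or more, where 12.5% of all probes did. These were *Snhg1*, *Snhg3* and both probes of *Snhg15*, and all but *Snhg3* also exceeded a log2 change of 1, where 3.17% of all probes did. None passed in limma at 1 or 2 Gy, where 0.0417% and 0.461% of all probes did, and 0 and 3 had an unadjusted p under 0.05 there. At 4 Gy 2 probes passed, at 8 Gy 3 and at 12 Gy 4, against 3.31%, 9.9% and 7.01% of all probes. These 5 comparisons share the same 3 control mice. No probe passed at any dose or on the trend when slide was a term of the model, where 4 had an unadjusted p under 0.05 on the trend and 5 at 12 Gy in limma, and with slide as a random block 4 passed on the trend. Without 12 Gy mouse 6, 4 probes passed on the trend in place of 7. The share of all probes passing was not counted in the fits with slide or with a mouse left out. Nor was the share at an unadjusted p under 0.05, so these counts cannot be set against the array as a whole.

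**Figure D2:**
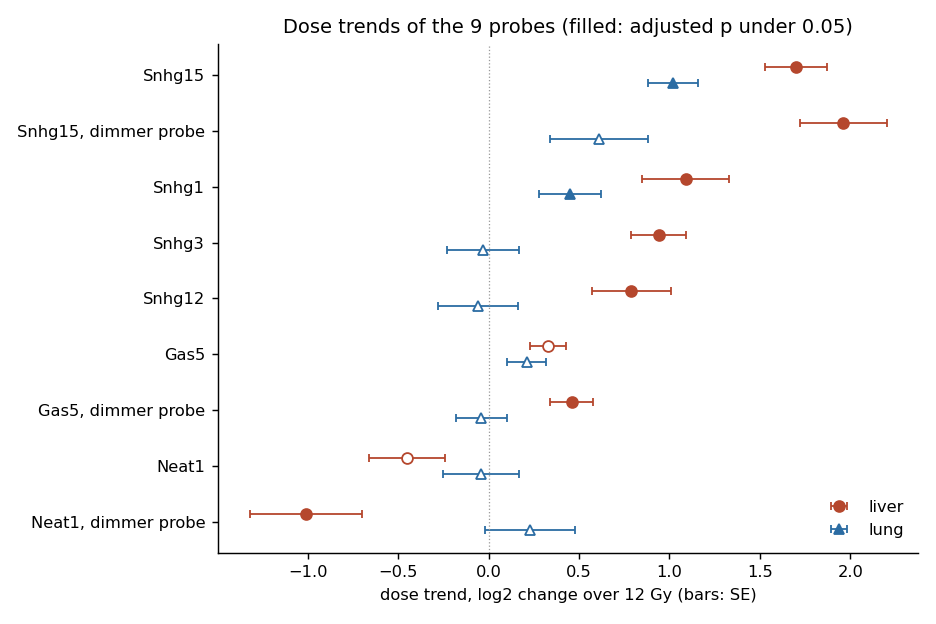
Dose trend of each of the 9 probes as the log2 change over 12 Gy (horizontal axis, bars are the SE) in liver (circles) and lung (triangles), with filled symbols at an adjusted p under 0.05. In liver 7 probes passed, 6 of them higher and the dimmer Neat1 probe lower, and in lung Snhg15 and Snhg1 passed.

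In lung the called trends were those of *Snhg15* and *Snhg1*. Of the 9 probes, 2 had a dose trend at an adjusted p under 0.05, both higher, where 30.7% of all lung probes passed and 19.7% were higher. The share of the set that passed was thus not above that of all lung probes, and the share that was higher was near theirs. The trends of the 7 host probes ran from -0.06 to 1.02 with a median of 0.21, and the median of all lung probes was 0.08. By dose, both *Snhg15* probes passed at 1 dose or more, where 22% of all probes did, and the brighter also exceeded a log2 change of 1, where 7.77% did. At 12 Gy 2 of the 7 host probes had every irradiated mouse above every control, where 21.6% of all probes did.

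*Snhg15* in lung read 9.60, 9.41 and 9.45 at 0 Gy. It read 9.96, 9.92 and 9.98 at 1 Gy and 9.98, 10.12 and 10.00 at 2 Gy. At 1 Gy no irradiated mouse overlapped a control, on a slide that held both groups, though the change of 0.47 (SE 0.16) had an adjusted p of 0.647. Of the 7 host probes, 2, both of *Snhg15*, had every 1 Gy mouse above the controls, where 7.09% of all lung probes did. Values were 10.16, 9.65 and 10.08 at 4 Gy, 10.39, 10.28 and 10.49 at 8 Gy and 10.65, 11.00 and 10.49 at 12 Gy. Every irradiated lung was thus above every control, with 4 Gy mouse 14 the closest. The change was 0.89 at 8 Gy (SE 0.16, adjusted p = 0.00281, 1.86-fold) and 1.23 at 12 Gy (SE 0.16, adjusted p = 0.000129, 2.34-fold), and the trend was 1.02 (SE 0.14, adjusted p = 6.91e-05). Without the 4 arrays of slide 5 the 8 Gy change was 0.83 (adjusted p = 0.00788) and the trend, fitted on 0 to 8 Gy and given on the same scale, was 0.97 (adjusted p = 0.0445).

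The dimmer *Snhg15* probe differed in lung. It read 8.41, 8.70 and 8.56 at 0 Gy, 9.23, 9.25 and 9.33 at 1 Gy and 9.21, 9.60 and 9.45 at 2 Gy, so that it too was above the controls at the low doses. It read 9.63, 8.70 and 9.58 at 4 Gy, 9.55, 10.29 and 9.0 at 8 Gy and 9.41, 9.17 and 9.83 at 12 Gy. The 12 Gy mice overlapped the 2 Gy mice, with means of 9.47 and 9.42, and the lowest 8 Gy value was that of mouse 25, the 8 Gy array on slide 5. The change at 12 Gy was 0.91 (SE 0.29, adjusted p = 0.0378) and the trend 0.61 (SE 0.27, adjusted p = 0.0935). Without slide 5 the trend was 1.59 (adjusted p = 0.0483) and the 8 Gy change 1.35 (adjusted p = 0.0165). The 12 Gy change had an adjusted p of 0.076 with outlier spots kept and of 0.142 with slide as a random block. The count of probes passing at any dose fell to 1 when any of 5 lung arrays was left out, the 0 Gy mice 1, 11 and 21 and the 12 Gy mice 6 and 26.

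*Snhg1* in lung read 10.56, 11.44 and 11.09 at 0 Gy and 11.17, 11.65 and 11.46 at 12 Gy, and these groups overlapped. Its trend was 0.45 (SE 0.17, adjusted p = 0.0485). The call was lost, leaving 1 probe with a trend, when any of 13 lung arrays was left out, namely 0 Gy mice 1 and 21, 1 Gy mice 2 and 22, 2 Gy mice 3, 13 and 23, 4 Gy mice 4 and 14, 8 Gy mice 15 and 25, and 12 Gy mice 16 and 26. It was also lost with no filter on dim probes (adjusted p = 0.0628), with outlier spots kept (0.0982), with dose on a log scale (0.091), with slide as a random block (0.103) and without slide 5 (0.489).

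The other host transcripts showed no called trend in lung. *Snhg3* read 11.45, 12.27 and 11.88 at 0 Gy and 11.94 and 12.27 in the 12 Gy mice measured, the spot of 12 Gy mouse 16 being an outlier set to missing. Its trend was -0.03 (SE 0.20, adjusted p = 0.915). *Snhg12* read 9.72, 9.89 and 9.37 at 0 Gy and 9.47, 9.99 and 9.50 at 12 Gy, with a trend of -0.06 (SE 0.22, adjusted p = 0.851). Its lowest lung value, 8.75, was that of 8 Gy mouse 25 on slide 5, and without that slide its trend was 0.56 (SE 0.26, adjusted p = 0.253). *Gas5* read 15.00, 15.09 and 14.90 at 0 Gy and 15.37, 15.04 and 15.27 at 12 Gy, and its trend of 0.21 (SE 0.11) had an adjusted p of 0.131. The dimmer *Gas5* probe had a trend of -0.04 (SE 0.14).

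*Neat1* varied most in lung among unirradiated mice. Its brighter probe read 9.30, 8.44 and 7.88 at 0 Gy, a span wider than that of any dose group, which lay between 7.99 and 8.69. The 12 Gy mice read 8.52, 8.20 and 8.32, within the span of the controls. The trend was -0.04 (SE 0.21, adjusted p = 0.909) and that of the dimmer probe 0.23 (SE 0.25, adjusted p = 0.511). The same 0 Gy mouse 1 that was highest for *Neat1* was lowest for *Snhg1* and *Snhg3* in lung.

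In lung the slides follow dose, with 0 and 1 Gy on slide 3, 2, 4 and most of 8 Gy on slide 4 and the rest on slide 5. Only 1 Gy can be compared with 0 Gy on the same slide, and for the higher doses dose and slide cannot be told apart. No probe had a called lung trend in limma with slide as a term, with *Snhg15* at 0.77 (SE 0.35, adjusted p = 0.67) and 3 of 9 at an unadjusted p under 0.05. How many of all lung probes passed in that fit was not counted. On slide 5 alone *Snhg15* was 0.23 higher in the 12 Gy mice than in the 8 Gy mouse, and on slide 4 alone it was 0.30 higher at 8 Gy than at 2 Gy but differed by -0.07 at 4 Gy.

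Whether the trends differed between the tissues was tested directly on the 36 arrays normalized together, over 47376 probes. The difference, lung minus liver, passed for 3 of the 9 probes, where 16.5% of all probes did. It was -0.89 for *Snhg3* (SE 0.25, adjusted p = 0.0138) and -1.17 for the dimmer *Snhg15* probe (SE 0.38, adjusted p = 0.0298), and it was 1.29 for the dimmer *Neat1* probe (SE 0.42, adjusted p = 0.0314). For the brighter *Snhg15* probe the difference was -0.46 (SE 0.22, adjusted p = 0.155), for *Snhg12* -0.79 (SE 0.32, adjusted p = 0.0866) and for *Snhg1* -0.51 (SE 0.29, adjusted p = 0.242), so a smaller lung response of these was not shown. Without slide 5 none of the 9 passed in limma, and 1 had an unadjusted p under 0.05. *Snhg3* was then at -1.08 (SE 0.35, adjusted p = 0.125), the dimmer *Snhg15* probe at -0.11 (adjusted p = 0.971) and the dimmer *Neat1* probe at 0.67 (adjusted p = 0.78). None passed with slide as a term either, and none had an unadjusted p under 0.05. The difference was then -0.54 for *Snhg3*, 0.40 for the dimmer *Snhg15* probe, with the direction turned, and 0.09 for the dimmer *Neat1* probe. Without lung 12 Gy mouse 6, 1 of the 9 passed. Shares of all probes were not counted for these further fits.

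Few of the probes differed between the unirradiated tissues. The 0 Gy livers were all on slide 1 and the 0 Gy lungs all on slide 3, so this comparison is also one of slides. On the scale of the 36 arrays normalized together, the difference between lung and liver at 0 Gy passed for 2 of the 9 probes, where 52.8% of all probes passed. *Gas5* read 14.44, 14.39 and 14.44 in liver and 14.85, 14.92 and 14.76 in lung, with no overlap, and was 0.42 higher in lung (SE 0.12, adjusted p = 0.00401, 1.34-fold). The dimmer *Gas5* probe differed by 0.09 (SE 0.17, adjusted p = 0.685), so its probes did not give the same answer. *Snhg3* read 11.01, 10.95 and 10.83 in liver and 10.96, 11.87 and 11.43 in lung, which overlap, and was 0.49 higher in lung (SE 0.19, adjusted p = 0.0355). *Snhg12* read 9.74, 9.37 and 9.57 in liver and 9.07, 9.25 and 8.69 in lung, with no overlap, yet the difference of -0.55 (SE 0.29) had an adjusted p of 0.11. *Neat1* differed by 0.25 (SE 0.27, adjusted p = 0.483). A single probe passed with slide as a term, and likewise without liver mouse 11 or 21 or lung mouse 11 or 21. The shares of all probes passing in those fits were not counted.

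Across the 18 arrays of a tissue the host transcripts moved together in liver and far less in lung. Over the 10 pairs of host lead probes, Pearson's r of the log2 values ran from 0.435 to 0.889 in liver, with a median of 0.716, and from -0.0972 to 0.517 in lung, with a median of 0.213. The arrays of a pair share RNA, array and dose, and the values are given as a description. Taken as deviations from the mean of the dose group, r had a median of 0.357 in liver and 0.118 in lung. *Snhg3* and *Snhg12* were the pair most alike in liver, with r of 0.889 over the values and 0.761 over the deviations, so they also varied together among arrays of 1 dose. The 2 Gy livers were on slides 1 and 2 and the 12 Gy livers on slides 2 and 3. Such deviations can thus hold slide as well as differences among mice. In lung the deviations of *Snhg1* and *Snhg3* had the highest r, 0.647 over 17 arrays.

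The pairs of probes of 1 gene were compared in the same way. The *Neat1* probes had an r of 0.906 in liver and 0.841 in lung, and their deviations from the dose means had an r of 0.913 and 0.926, so the wide spread of *Neat1* among mice was seen by both. The *Snhg15* probes had an r of 0.912 in liver and 0.57 in lung, while their deviations within dose had an r of 0.317 and -0.0165. The *Gas5* probes had an r of 0.831 in liver and 0.109 in lung.

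**Figure D3:**
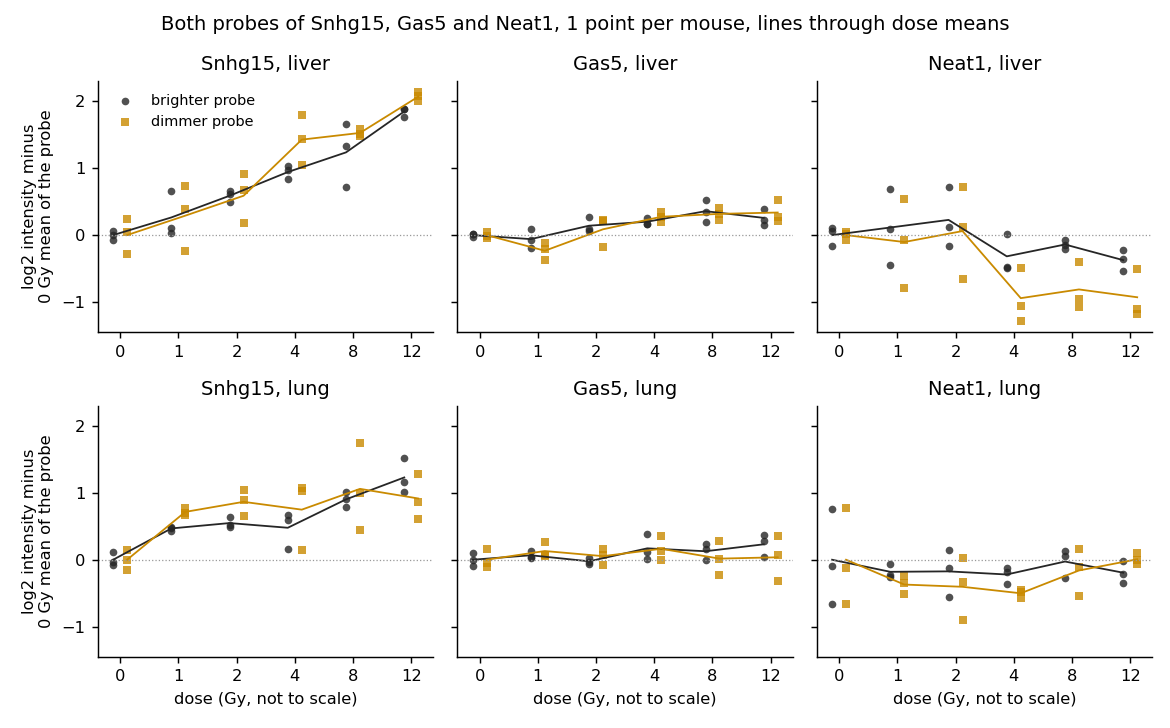
Log2 intensity of the brighter (circles) and dimmer (squares) probe of Snhg15, Gas5 and Neat1 minus the 0 Gy mean of the same probe (vertical axis), by dose in Gy (horizontal axis, evenly spaced), in liver (top) and lung (bottom). Each point is 1 mouse and lines join the dose means. The Snhg15 probes rose together in liver, the dimmer one did not rise from 8 to 12 Gy in lung, and the dimmer Neat1 probe fell further than the brighter one in liver.

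The genes whose pattern was most like each member's were found over 15952 probes well above background on all 36 arrays, with likeness taken as the lower of Pearson's r over the 18 liver and over the 18 lung arrays. These are the highest of many values and are given without a test. For *Snhg15* they were *Bax* (0.93), which promotes apoptosis, *Phlda3* (0.918), an inhibitor of Akt, and *Cpt1c* (0.895). *Bax* and *Phlda3* are both targets of p53, and *Snhg15* came closer to its nearest genes than any other member did. The trends of *Bax* were 1.03 in liver and 1.56 in lung, and those of *Phlda3* 3.42 and 1.64.

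For *Snhg12* the nearest were *Epb41l4aos* (0.839), itself a snoRNA host, *Sec24b* (0.812), a coat protein of vesicles leaving the endoplasmic reticulum, and *Zfp358* (0.802). *Snhg12* and *Epb41l4aos* had an r of 0.968 in lung, where neither had a called trend. For *Snhg1* they were *Zfp958* (0.794), *Mon2* (0.769) and the snoRNA host *Snhg9* (0.746). For *Snhg3* they were *Upf3a* (0.77), a factor of nonsense-mediated decay, *Wwp1* (0.71), a ubiquitin ligase, and *Tmem128* (0.693). For *Gas5* they were *Cobll1* (0.835), *Cebpb* (0.741), a transcription factor of the liver's acute response, and *Zfp110* (0.737). For *Neat1* they were *Vps51* (0.735), a tether of vesicles at the Golgi, *Dennd6b* (0.696) and *Tbc1d17* (0.678).

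Other snoRNA host lncRNAs were followed as a list of 16 genes, of which 11 were tested in liver and 12 in lung. In liver 4 of the 11 had a higher dose trend and none a lower one, where 4.04% and 5.47% of all probes did, and the median of the list was 0.30. Named after their values were seen, these were *Epb41l4aos* (0.76, SE 0.17, adjusted p = 0.00796), *Zfas1* (0.76, SE 0.18, adjusted p = 0.0102), *Snhg16* (0.47, SE 0.13, adjusted p = 0.0249) and *Snhg9* (0.30, SE 0.08, adjusted p = 0.0219). *Snhg5*, the largest at 0.89 (SE 0.28), had an adjusted p of 0.0514. None reached a log2 change of 1. In lung 4 of the 12 were higher and 2 lower, where 19.7% and 11% of all probes were, and the median was 0.09, near that of all lung probes. *Snhg16* had the lowest p there (0.73, SE 0.12, adjusted p = 0.000282), and *Snhg6* and *Snhg7* were lower by -0.88 and -0.67 (adjusted p = 0.00932 and 0.0358). *Epb41l4aos* and *Zfas1* were at -0.15 and 0.16 in lung, with adjusted p of 0.639 and 0.415.

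**Figure D4:**
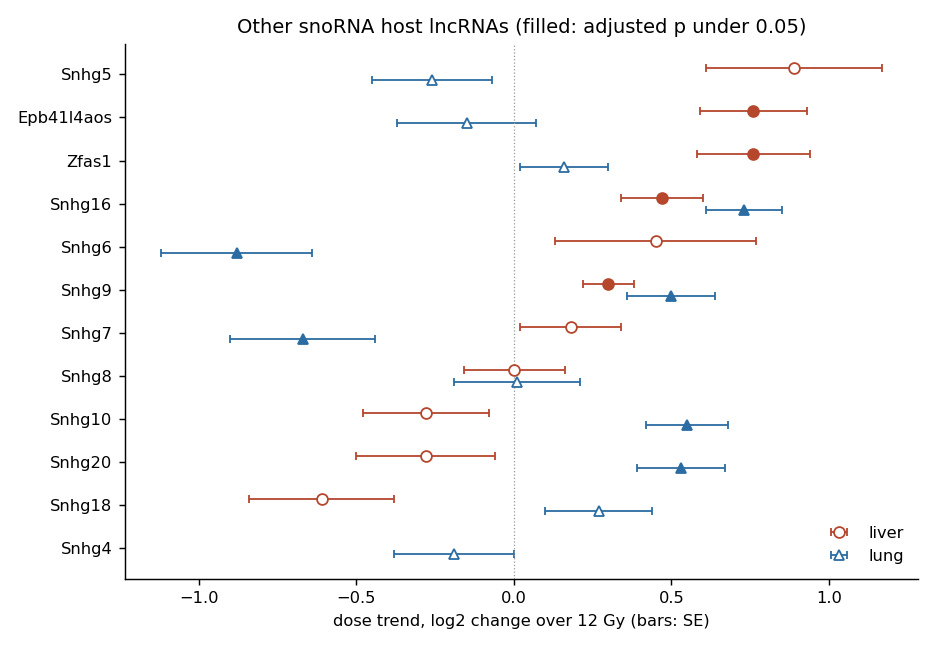
Dose trend of the other snoRNA host lncRNAs that were tested, as the log2 change over 12 Gy (horizontal axis, bars are the SE) in liver (circles) and lung (triangles), with filled symbols at an adjusted p under 0.05. In liver the 4 called genes were all higher, and in lung 4 were higher and 2 lower.

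Lists of proteins that act with these RNAs were counted against the 9.51% of all probes with a called trend in liver (4.04% higher, 5.47% lower) and 30.7% in lung (19.7% higher, 11% lower). Of 10 snoRNP proteins, which package and guide snoRNAs, only *Rrp9*, a binder of the U3 snoRNA, passed in liver with a trend of -0.58 (adjusted p = 0.00393), and the median was -0.10. In lung 2 were higher and 3 lower, led by *Nolc1*, a chaperone of snoRNP assembly, at 0.90 (SE 0.12, adjusted p = 3.17e-05). *Dkc1*, the pseudouridine synthase of H/ACA snoRNPs, was at -0.97 (adjusted p = 0.000651) and *Nhp2*, its partner, at -0.91 (adjusted p = 0.00118) in lung. Of 9 tested factors of nonsense-mediated decay none passed in liver, where the median trend was 0.0016 and 2 had an unadjusted p under 0.05 in limma, while 3 were higher and 1 lower in lung, with *Smg6*, the endonuclease of the pathway, at 0.86 (adjusted p = 0.00252).

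None of 10 paraspeckle proteins had a called trend in liver or lung, with medians of 0.06 and -0.0022, and 3 and 1 had an unadjusted p under 0.05 in limma. By dose, *Rbm14*, named after its values were seen, was lower in liver at 4, 8 and 12 Gy, by -0.88, -0.89 and -0.58 (adjusted p = 0.0053, 0.00218 and 0.0259). The lowest adjusted p of a trend was 0.0666, for *Cpsf6*, a cleavage factor subunit, in lung. Of 12 nuclear speckle and splicing proteins, 2 were higher in liver, *Ddx5* (0.47, adjusted p = 0.00289), an RNA helicase, and *Clk1* (0.43, adjusted p = 0.044), a kinase of splicing factors. In lung 3 were higher and 3 lower, with the splicing factor *Srsf3* at -1.35 (SE 0.32, adjusted p = 0.00434).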

How the data were processed

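The authors deposited scanner output of 1-colour Agilent arrays (Feature Extraction 11.5.1.1, protocol GE1_1105_Oct12), with a median foreground and background intensity for every spot and the software's processed signal. These deposited intensity values carry no normalization between arrays. The authors' deposited series values are linear intensity values with a floor of 0.01, and the procedure behind them is not given in the sources used here.

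The tools were limma 3.58.1, statmod 1.5.0 and the data.table package (1.17.8) in R 4.3.3, and plots were drawn with matplotlib 3.10.9 (Python 3.11.15). Background was removed from the median intensities by normexp (offset 0), after which controls were left out and outlier spots became missing values. Arrays of 1 tissue, or all 36 for comparisons between tissues, were quantile-normalized, and the log2 values of spots of the same probe were averaged. A probe was tested if at least 0.5 of its spots were well above background on 1 or more of the arrays fitted. limma compared each dose with 0 Gy in a fit of 6 dose groups, fitted dose in Gy as a line, and tested lung against liver. p values were adjusted by the Benjamini-Hochberg method within each comparison and called under 0.05, or with an absolute log2 change above 1 as well, which is the rule of the study's methods. The dose and trend fits were run on simulated log2 values with known changes and no slide effect. The steps before them and the comparisons of tissues were not tested in this way. The number of arrays limits the precision, and no array was saturated or matched another (highest r between arrays 0.9966).

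Probes were named by RefSeq transcript. The 9009 probes with an Ensembl transcript name were not named here. The lead probe of a gene was its brightest over 36 arrays. Further genes are those of set lists, counted whole, with values for those past both thresholds or else for the lowest p, and the 3 of highest likeness. Other list genes, *Snhg6*, *Snhg7*, *Dkc1*, *Nhp2* and *Clk1* among them, fall outside this rule and were named after their values were seen. The members and lists were chosen with earlier results of these data known. Alternatives were the background correction, the scaling, the deposited values, the dim-probe filter, outlier spots, slide, joint normalization, the scale of dose, the replicate block and each mouse left out. Slide as a random block and leaving out slide 5 were chosen after seeing the data. Mice shared no numbers between doses.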

Additional observations from a re-analysis of the deposited data

Results flagged for a closer look

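The dose trend differed between lung and liver for 3 probes by the test of the difference itself (limma, lung minus liver, log2 change over 12 Gy). It was -0.89 for *Snhg3*, which rose with dose in liver and had no called trend in lung. It was -1.17 for the dimmer *Snhg15* probe, with a trend of 1.96 in liver and 0.61 in lung, while the brighter probe's difference of -0.46 did not pass. It was 1.29 for the dimmer *Neat1* probe, with a trend of -1.01 in liver and 0.23 in lung, while the brighter probe's difference of 0.40 did not pass. Slide 5 holds all 12 Gy lungs. With slide as a term the differences were -0.54, 0.40 and 0.09, the second with its direction turned, and none passed. Without the arrays of slide 5 the differences were -1.08, -0.11 and 0.67 and none passed, on a trend fitted over fewer doses in lung.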

How the results depend on the processing

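With slide as a term, the number of probes called of 9 went to 0 for the liver doses, 0 for the liver trend, 0 for the lung trend, 0 for the difference of trends and 1 for unirradiated lung against liver. The lung doses could not be fitted with it beyond 1 Gy. With slide as a random block 4 were called on the liver trend, 1 at lung doses and 1 on the lung trend. The correlation within slides used there was 0.0583, 0.243 and 0.101 in turn, and doses were still compared across slides. On the lung trend the deposited series values gave 4, no filter on dim probes 1 and outlier spots kept 1. At lung doses outlier spots kept gave 1 and the added threshold on the log2 change gave 1. Without slide 5 the difference of trends had 0. Leaving out 1 array at a time gave 4 to 5 for the liver doses, 4 to 7 for the liver trend, 1 to 2 for the lung doses, 1 to 2 for the lung trend, 1 to 4 for the difference of trends and 1 to 3 for the tissues at 0 Gy. Shares of all probes called were not counted with slide in the fit, without slide 5 or with 1 array left out. Counts under those settings thus cannot be set against the array as a whole.

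Trends that turned direction were not called under any setting. *Snhg3* in lung was 0.15 with the processed signal at the 75th percentile, 0.25 with the series values, 0.01 with outlier spots kept and 0.06 with slide as a term. *Snhg12* in lung was 0.98 with slide as a term, 0.01 with slide as a random block and 0.56 without slide 5. *Neat1* in liver was 0.15 with slide as a term. With 1 array left out, the lung trends ran from -0.21 to 0.04 for *Snhg3*, from -0.19 to 0.07 for *Snhg12* and from -0.14 to 0.13 for *Neat1*. The causes were not tested beyond what the settings themselves remove. The trend of the brighter *Snhg15* probe stayed called in both tissues under every setting but slide as a term.

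Sample numbers are shared by liver and lung, and by the design each animal gave an array of each tissue. Same-numbered samples may thus come from the same mouse. Of 18 same-numbered pairs 4 correlated above 0.1 (range -0.173 to 0.263). Low correlations cannot show that the samples of a pair came from different mice, so the pairing was left undecided. The main comparisons between tissues treated all arrays as independent. With the number as a replicate block 3 probes were called for the difference of trends and 2 for the tissues at 0 Gy, as without it.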
